A study of Mus musculus with 36 samples.

Results

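The genes described here are 9 that respond to, or restrain, signalling through the kinase ERK: the phosphatase genes Dusp4, Dusp5 and Dusp6, the inhibitor genes Spry1, Spry2 and Spred1, and the immediate early genes Egr1, Fos and Jun. They were chosen by symbol as a pathway, with no threshold on their values but with earlier results of these data known, and all 9 passed the filter on low values in each of the 3 RNA tables, where 17649, 13345 and 13651 genes were tested. The study asked how loss of the deacetylase SIRT7, and changes at a lysine of the transcription factor Pax5, alter early B cell development in the mouse, and it holds 24 RNA libraries and 12 ChIP and input samples.

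The first RNA table covers bone marrow of wild-type (WT) and germline Sirt7-/- mice on a 129Sv background, with 2 mice per genotype. From each mouse B lineage cells without surface IgM were sorted into a CD43+ fraction, called pro-B, and a CD43- fraction, called pre-B. In the second, Pax5-/- cells on a C57BL/6 background, which the labels place in the bone marrow and the methods in the fetal liver, carried an empty retroviral vector (EV) or a vector for Pax5 WT, Pax5 K198Q (lysine changed to glutamine) or Pax5 K198R (lysine changed to arginine). In the third, bone marrow pro-B cells put in culture were used, on the 129Sv background per the study. Of these, WT cells carried EV and Sirt7-/- cells carried EV, Pax5 WT or Pax5 K198R. All cultured cells, EV controls included, grew on OP9 stromal feeders with IL-7, SCF and FLT3-L at 10 ng/mL each and were sorted for the vector's marker, and each group had 2 replicate cultures. Per the study's methods the mice were 8 to 16 weeks old, apart from the fetal donors of Pax5-/- cells. The pre-B libraries held 50004827 to 52103361 reads and the pro-B libraries 54130851 to 55536608, recovered from the deposited values, whereas the cultured libraries summed to 27814214 to 30520853 normalized counts and their depth in reads is unknown. Values were compared within a table only, because the tables were normalized separately.

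ERK is the last kinase of the Ras, Raf and MEK cascade, which in B cell progenitors lies downstream of cytokine receptors and of the pre-B cell receptor. Active ERK switches on immediate early genes such as Egr1, Fos and Jun within minutes, and with a delay it switches on genes whose products turn the pathway down again. Among these, Dusp5 and Dusp6 remove phosphate from ERK, Dusp4 does so for ERK and related kinases, and Sprouty and Spred proteins act on Ras and Raf further upstream.

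In mm10 with GENCODE M21, all but Egr1, whose position is not printed here, lie at chr8:34807297-34819894 (Dusp4), chr19:53529109-53542431 (Dusp5), chr10:99263231-99267489 (Dusp6), chr3:37639947-37644598 (Spry1), chr14:105891947-105896819 (Spry2), chr2:117121374-117182279 (Spred1), chr12:85473890-85477273 (Fos) and chr4:95049034-95052222 (Jun). Spry2 and Jun are on the minus strand and the others, Egr1 included, on the plus strand. Their exons cover 2.09 kb (Spry2) to 6.78 kb (Spred1), and levels of different genes were compared per kb of exon.

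Levels of the targeted genes were read first as a check of the labels. Sirt7 stood at 363 and 366 normalized counts in the Sirt7-/- pro-B libraries against 2692 and 2533 in WT pro-B, and at 1066 and 821 against 5613 and 5219 in pre-B cells. In culture it stood at 325 to 407 in the 6 Sirt7-/- libraries against 1324 and 905 in WT. In Pax5-/- cells the Pax5 transcript stood at 2201 and 2103 with EV, 6458 and 6152 with Pax5 WT, 8918 and 8963 with K198Q, and 21162 and 16610 with K198R. The K198R cells thus held 3-fold more Pax5 transcript than the Pax5 WT cells (log2 fold change 1.57, SE 0.118, adjusted p = 0.0029 in limma, on the log2(value + 1) scale used throughout), and the amount of Pax5 transcript cannot be told apart from the change of this lysine in the comparisons of K198R with the other forms. Stage markers were read in WT mice, where 40.2% of all genes were called between stages. Of the genes used as pro-B markers, Dntt, Igll1, Vpreb1 and Kit fell in pre-B cells (log2 fold changes of -7.30, -5.09, -5.73 and -4.87), while Ebf1 rose (0.33), as did Rag1 and Cd79a (1.66 and 0.97), which mark the pre-B stage as well. Of the other pre-B markers Il2ra, Cd79b, Cd2 and Ms4a1 rose (1.74 to 3.86) and Igkc was not called (-0.66, adjusted p = 0.171). The light chain gene Igkc was abundant in the libraries labelled pro-B, at 234972 to 550267 counts, and the T cell genes Cd3e and Cd3g were above 0 in all 4 pro-B libraries and at 0 in all 4 pre-B libraries. Source names of 4 sorted libraries give the other stage than their titles and descriptions, which were followed here.

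Pax5 occupancy was measured by ChIP-seq in Pax5-/- cells that carried Pax5 WT, K198Q or K198R, with peaks called in each of 2 replicates over its own input. A gene was scored as having a peak where peaks of both replicates overlapped within its body or the 10 kb upstream. With Pax5 WT, 7 of the 9 genes had such a peak, all but Dusp4 and Spred1, compared with 26.5% of 21911 protein-coding genes. With K198Q the count was 6 of 9, against 9.79% of genes, and with K198R it was 6 of 9, against 30.3%. Both mutants lacked a replicated Fos peak, and the same 6 genes (Dusp5, Dusp6, Spry1, Spry2, Egr1 and Jun) were scored in all 3 forms. Among the rest of the pathway, 9 of 18 cascade genes had a replicated peak with Pax5 WT, none with K198Q and 12 with K198R. Of the 13 receptor and adaptor genes upstream, 11, 9 and 11 had one in the same order. Of 12 other feedback inhibitor genes 7, 3 and 6 had one, and of 23 other immediate early genes 11, 3 and 11. The K198Q lists were shorter as a whole, with 3750 and 3957 peaks against 10646 and 11830 for Pax5 WT and 12158 and 13997 for K198R, and a peak missing from them was not called, which does not show that Pax5 was absent.

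The peaks at these genes clustered near their starts. At Jun, which encodes a subunit of the AP-1 factor, summits of all 6 lists fell 1060 to 1086 bp upstream of the start, at 19.5-fold and 17.7-fold over input with Pax5 WT, 14.5-fold and 12.4-fold with K198Q, and 15.6-fold and 20.6-fold with K198R. A second Jun cluster lay 165 to 179 bp upstream in 5 lists, at 15.4-fold in Pax5 WT replicate 1, 9.86-fold and 10.2-fold with K198Q, and 9.32-fold and 14.4-fold with K198R. In every list the distal Jun peak was the tallest at any of the 9 genes, and its K198Q folds lay below those of the other forms, whereas at the proximal cluster both K198Q folds lay above K198R replicate 1. At Egr1, a zinc finger factor, summits of all 6 lists fell 68 to 143 bp inside the first exon, at 13.1-fold and 10.3-fold with Pax5 WT, 4.95-fold and 7.39-fold with K198Q, and 14-fold and 13-fold with K198R. The Spry1 cluster lay 1048 to 1081 bp inside the gene, in an intron, at 12.6-fold and 8.97-fold, 4.52-fold and 7.38-fold, and 10.9-fold and 9.44-fold in the same order. At Spry2 the summits spread over 553 to 724 bp upstream, at 9.24-fold and 9.55-fold, 5.09-fold in both K198Q lists, and 10.3-fold and 12.8-fold. In 4 of these 5 clusters, all but the proximal Jun cluster, both K198Q values were below all values of the other forms, a description with 2 replicates a form and no test.

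At Dusp5 the folds with K198Q overlapped those with Pax5 WT and lay below both with K198R. Its cluster lay 162 to 191 bp upstream of the start in all 6 lists, at 7.56-fold and 6.74-fold with Pax5 WT, 6.03-fold and 6.77-fold with K198Q, and 9.16-fold and 10.1-fold with K198R. At Dusp6 the summits were split, with a cluster 1015 to 1100 bp upstream in 5 lists (4.09-fold to 9.58-fold) and another 1465 to 1593 bp upstream in 3 lists (4.29-fold to 9.2-fold). Fos, the partner of Jun in AP-1, had low peaks, at 5.87-fold and 5.32-fold within 43 bp of its start with Pax5 WT, and 3.76-fold in K198R replicate 2. A second Fos cluster lay 1486 to 1664 bp upstream, at 5.15-fold and 5.01-fold with Pax5 WT, 4.02-fold in K198Q replicate 2 and 3.59-fold in K198R replicate 2, and the other lists held no Fos peak. Spred1 had only unreplicated peaks, and Dusp4 had a single peak, 7 bp upstream of its start in K198R replicate 1 at 3.45-fold.

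**Figure D1:**
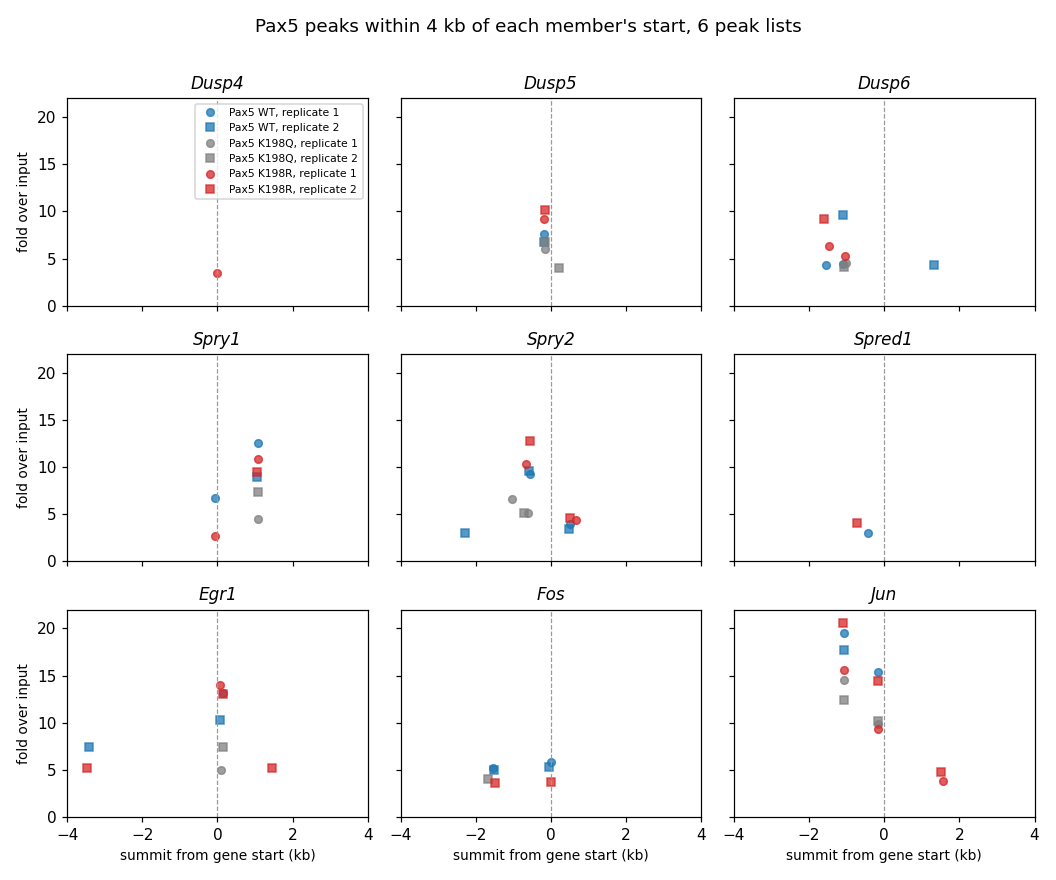
Peak summits within 4 kb of the start of each gene, 1 panel per gene: horizontal axis, distance of the summit from the gene start in kb; vertical axis, fold over input; colours mark the form of Pax5 and symbols the replicate. Jun holds the tallest points (up to 20.6-fold), grey K198Q points sit lowest in the clusters at Spry1, Spry2, Egr1 and the distal Jun cluster, and Dusp4 holds a single point.

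4 stretches were bound at nearly the same base in 5 or 6 lists, with summits spanning less than 40 bp. They are shown because they place occupancy at the resolution of the data, as 150 bases of mm10 centred on the summits, written 5′ to 3′ on the strand of the gene. Capitals mark the bases spanned by the summits of the lists. The first lies upstream of Dusp5 at chr19:53528858-53529007 on the plus strand, the second in the intron of Spry1 at chr3:37640937-37641086 on the plus strand, and the last pair upstream of Jun on the minus strand, at chr4:95052320-95052469 and chr4:95053221-95053370.
Dusp5 upstream: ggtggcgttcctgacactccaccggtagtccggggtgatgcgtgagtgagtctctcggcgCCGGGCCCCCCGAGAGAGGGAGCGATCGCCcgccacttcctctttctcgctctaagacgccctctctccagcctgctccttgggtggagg
Spry1 intron: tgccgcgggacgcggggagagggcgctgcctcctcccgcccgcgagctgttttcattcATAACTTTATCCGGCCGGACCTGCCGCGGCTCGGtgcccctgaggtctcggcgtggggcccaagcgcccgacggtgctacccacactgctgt
Jun proximal: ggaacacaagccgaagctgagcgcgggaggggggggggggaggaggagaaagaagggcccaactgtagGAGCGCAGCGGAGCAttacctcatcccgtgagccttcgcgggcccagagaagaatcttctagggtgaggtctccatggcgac
Jun distal: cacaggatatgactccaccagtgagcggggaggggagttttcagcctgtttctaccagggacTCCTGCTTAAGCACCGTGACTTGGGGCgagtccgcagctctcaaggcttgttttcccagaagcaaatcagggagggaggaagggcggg
None of these stretches held GCGTGAC or GCATGAC, letters found in many Pax5 sites, nor TGACGTCA (a CREB and AP-1 element) or TGANTCA (the AP-1 element), on either strand. GCGTGAC and GCATGAC differ by 1 letter and share TGAC with TGACGTCA. Of all 7908 replicated Pax5 WT summit windows of the same length, 5.42% held GCGTGAC, 4.11% GCATGAC, 1.18% TGACGTCA and 4.11% TGANTCA. Over all replicated summits at the 9 genes, none of 11 windows with Pax5 WT or 8 with K198Q held any of the 4, and 1 of 10 with K198R held GCGTGAC, against 8.13% of windows with K198Q and 4.84% with K198R. In the RefSeq promoters (GRCm38.p6, 250 bases before the start to 50 after it), 7 of the 9 genes were matched, Dusp4 and Egr1 not, and none of the 7 held any of these motifs, against 2.09%, 2.17%, 1.79% and 7.81% of 32851 promoters in the same order. A search for fixed letters says nothing of whether a factor binds in these windows. The Dusp5 stretch overlaps the annotated antisense gene AC137853.2 and the Jun stretches the antisense gene Junos.

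To ask what each form of Pax5 did to these genes, Pax5-/- cells with a form of Pax5 were compared with EV cells. With K198R, Spry1, Dusp4 and Dusp5 fell and Jun rose. With Pax5 WT only Spry1 fell, and with K198Q no member was called. With the replicate as a block, Dusp4, Dusp5, Jun, Spred1 and Egr1 were called with Pax5 WT as well, and Egr1 with K198R. The 9 genes had 1 call with Pax5 WT, none with K198Q and 4 with K198R (limma, Benjamini-Hochberg adjusted p under 0.05 over all genes), where 3.25%, 0.922% and 9.92% of all genes tested were called. Replicates of the cultured cells were made on different days and deviated together, so the fit with replicate as a block is given where it changes a call. With the block, 6 members were called with Pax5 WT against 10.1% of all genes, and 5 with K198R against 21.2%. The median log2 fold change of the 9 was 0.10 with Pax5 WT, -0.02 with K198Q and 0.21 with K198R, beside 0.00, -0.01 and 0.01 over all genes, as members moved both ways. All 3 comparisons share the EV cultures.

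Dusp4 stood at 365 and 350 normalized counts with EV, 195 and 158 with Pax5 WT, 271 and 173 with K198Q, and 122 and 90.6 with K198R. Every Pax5 library lay below both EV libraries, and both K198R libraries were lowest. The fall with K198R passed the test (log2 fold change -1.76, SE 0.268, adjusted p = 0.00647), whereas that with Pax5 WT did so only with the block (-1.02, SE 0.268, adjusted p = 0.0991; 0.0124 with the replicate block) and K198Q was not called (-0.72, adjusted p = 0.503).

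Dusp5 was the most abundant member per kb of exon in these cells, at 3251 normalized counts per kb with EV. It stood at 7022 and 9056 with EV, 5266 and 5456 with Pax5 WT, 6038 and 6626 with K198Q, and 5590 and 4768 with K198R, so no Pax5 library reached the EV range. With K198R it fell by 0.63 on the log2 scale (SE 0.137, adjusted p = 0.0275). The call was lost without EV replicate 2 (adjusted p = 0.126), without K198R replicate 2 (0.129) and with no filter on low values (0.055). With Pax5 WT the change was -0.57 (adjusted p = 0.0767; 0.0232 with the replicate block). Dusp6, by contrast, was low and ordered by replicate rather than by vector, with every first replicate below every second replicate. It stood at 125 ± 34.9 with EV (SD, n = 2), 92.5 and 186 with Pax5 WT, 79.8 and 183 with K198Q and 82.7 and 246 with K198R, and the changes were -0.02 to 0.21 with SE 0.608.

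Spry1 was lower with every form, and the difference was called with Pax5 WT and K198R. It stood at 596 and 568 with EV, 304 and 316 with Pax5 WT, 452 and 394 with K198Q, and 228 and 177 with K198R, and no group overlapped another. The log2 fold change was -0.91 with Pax5 WT (SE 0.173, adjusted p = 0.0354), -0.46 with K198Q (adjusted p = 0.512) and -1.53 with K198R (adjusted p = 0.00213). The Pax5 WT call did not survive leaving out any of the 4 libraries, with adjusted p of 0.193 without EV replicate 1, 0.161 without EV replicate 2, 0.188 without Pax5 WT replicate 1 and 0.214 without Pax5 WT replicate 2. Without a filter on low values it was 0.0594, and with the block 0.00709. The intronic Pax5 peak described above lies in this gene in all 6 peak lists.

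The other inhibitors did not pass the test without the block. Spry2 stood at 168 and 181 with EV and at 203 to 293 in the 6 Pax5 libraries, with changes of 0.42 to 0.49 and adjusted p of at least 0.229. Spred1 stood at 1842 and 1900 with EV and 2066 to 2270 with any form, changes of 0.17 to 0.28 on the log2 scale, of which that with Pax5 WT was called with the block alone (adjusted p = 0.0482).

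Jun stood at 919 and 754 with EV, 1173 and 1289 with Pax5 WT, 1099 and 1079 with K198Q, and 2021 and 1759 with K198R. All Pax5 libraries exceeded both EV libraries and K198R stood apart above the rest. The rise with K198R was called (1.18, SE 0.133, adjusted p = 0.00211), that with Pax5 WT with the block alone (0.56, adjusted p = 0.0733; 0.0177 with the block), and K198Q was not called (0.39, adjusted p = 0.438). Egr1 rose from 134 and 159 with EV to 274 and 409 with Pax5 WT and 237 and 380 with K198R by the blocked fit (1.19 and 1.03, adjusted p = 0.00459 and 0.00396 with the replicate block; 0.077 and 0.0649 without it). With K198Q it stood at 224 and 267, above EV and not called (0.74, adjusted p = 0.544). Fos was low and scattered, at 110 and 65.2 with EV and 31 to 75.1 with any form, and was not called.

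**Figure D2:**
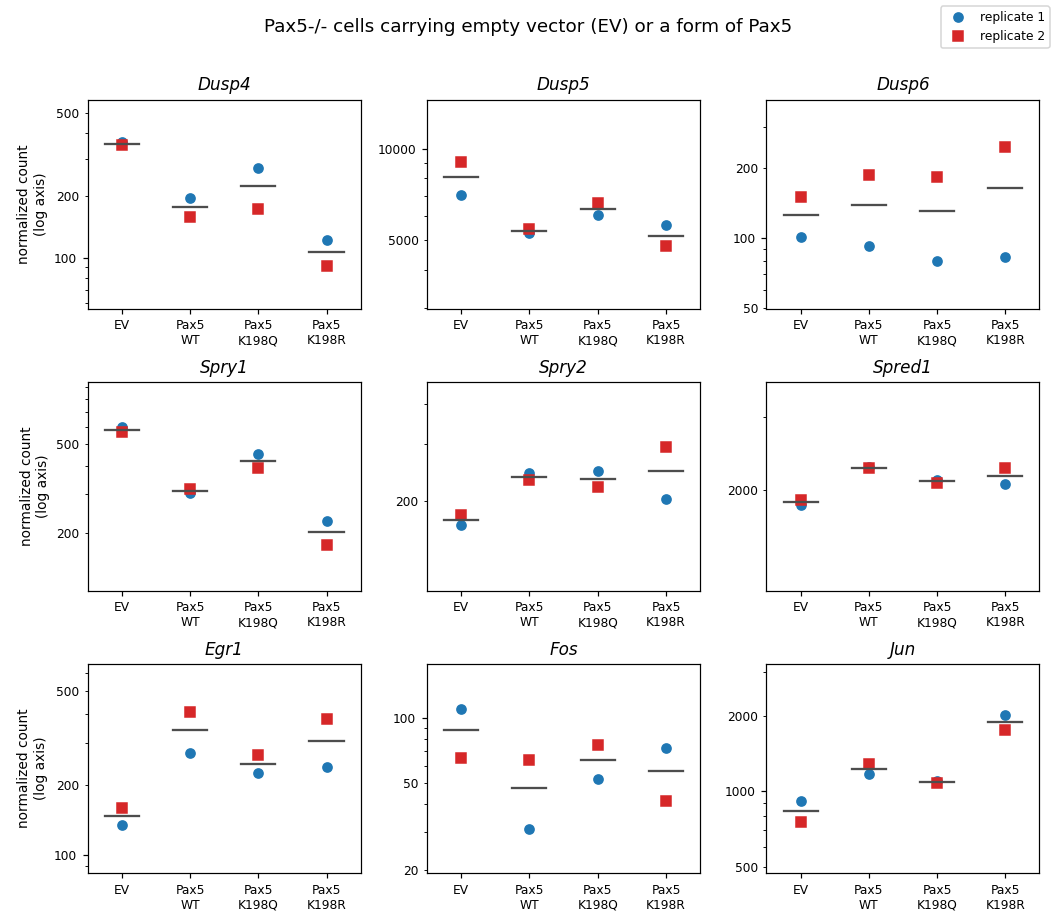
Normalized counts of each gene (log axis) in the 8 libraries of Pax5-/- cells, by vector; points are replicates 1 (circle) and 2 (square) and bars are group means. Dusp4 and Spry1 are lowest and Jun is highest with K198R, every Egr1 value with a form of Pax5 lies above both EV values (134 and 159), and Dusp6 separates by replicate.

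The forms were also compared with each other. K198R cells held less Spry1 than K198Q cells (203 ± 36.4 against 423 ± 41.7, SD, n = 2; log2 fold change -1.07, SE 0.173, adjusted p = 0.0158 in limma) and more Jun (1890 ± 185 against 1089 ± 14.6; 0.79, SE 0.133, adjusted p = 0.0177). These were 2 calls among the 9, where 5.01% of all genes were called. Both calls were lost without K198Q replicate 1 (adjusted p = 0.12 for Spry1 and 0.102 for Jun) or K198Q replicate 2 (0.0928 and 0.127), and that of Spry1 without K198R replicate 2 (0.053). With the replicate block Dusp4 was called too (-1.04, adjusted p = 0.00992), making 3 against 13.1% of all genes. Against Pax5 WT, K198R gave no call among the 9 (2.87% of all genes). At an unadjusted p under 0.05 it gave 3 members, against 12.7% of all genes. With the block it gave 2 calls (7.52%), Jun, higher by 0.62 (adjusted p = 0.057 without and 0.0148 with the block), and Spry1, lower at -0.62 (0.138 and 0.038). K198Q against Pax5 WT gave no call among the 9 (0.0225% of all genes). At an unadjusted p under 0.05 it gave 1 member, Spry1 (difference 0.44, SE 0.173), against 3.46% of all genes.

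Genes around the cascade were read from lists of its parts, beside 3.25%, 0.922% and 9.92% of all genes called with Pax5 WT, K198Q and K198R. Among 18 cascade genes, Gab1, an adaptor that brings SHP2 and PI3K to receptors, rose from 16.5 to 278 with Pax5 WT (log2 fold change 4.03, adjusted p = 0.000339), 227 with K198Q (3.73, adjusted p = 0.00136) and 462 with K198R (4.76, adjusted p = 9.94e-05). Ksr1, a scaffold for Raf and MEK, fell with Pax5 WT (-0.81, adjusted p = 0.0469), and Ptpn11, which encodes SHP2, fell with K198R (-0.37, adjusted p = 0.0241). Of the other feedback inhibitors, none of 12 was called with Pax5 WT or K198Q, and with K198R Spred2 rose (0.51, adjusted p = 0.0457) and Spry4 fell (-1.98, adjusted p = 0.0301). Of 22 other immediate early genes, 1 fell with Pax5 WT, none was called with K198Q, and with K198R 1 rose and 6 fell, among them Klf2 (-2.26, adjusted p = 0.00309), Ier3 (-2.60, adjusted p = 0.00518), Fosl2 (-1.32, adjusted p = 0.00583) and Nr4a3 (-1.99, adjusted p = 0.00995). The rise of Jun and the falls in this list with K198R therefore ran in opposite directions. Atf3, a stress-induced partner of Jun, was higher with K198R than with Pax5 WT (299 against 73.9; 1.95, adjusted p = 0.033) or K198Q (2.04, adjusted p = 0.0209).

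Upstream of the cascade, 6 of 13 receptor and adaptor genes rose and 2 fell with Pax5 WT (3.25% of all genes called), 4 rose with K198Q (0.922%), and 5 rose and 2 fell with K198R (9.92%). Blnk, the adaptor of the pre-B cell receptor, rose from 3.73 to 934, 472 and 3360 with the 3 forms in that order, and Cd79a, its signalling chain, from 2260 to 8530, 5230 and 13800. Rasgrp3, an activator of Ras, fell with K198R (286 against 2010; -2.82, adjusted p = 0.000235). No heat shock gene of 6 was called with any form. Other cell types moved with the vectors as well: with K198R, 3 of 4 mature B cell genes rose, 2 of 4 T cell genes fell (their list summed to 1982 and 2633, nearly all Lck, against 2491 and 3209 with EV) and 1 of 3 NK cell genes fell. Of 4 myeloid genes 2 fell and 1 rose, and their list summed to 656 and 408 against 1011 and 730, mostly Itgam. Of 3 plasma cell genes 1 fell, and that list, mostly Jchain, summed to 39075 and 31225 against 76370 and 74261. Genes listed as OP9 markers summed to 2470 to 6402 in these libraries, with Fn1 most abundant and Dcn and Lum at 0 in all 8, and 1 of 7 fell with K198R. Fn1 also led this list in sorted pro-B cells, which were not cultured. With Pax5 WT, 1 mature B cell and 1 myeloid gene rose, 1 NK cell, 1 plasma cell and 1 OP9 gene fell, and the plasma cell list summed to 50349 and 43796. The part of these cells in the results was not tested, and in bulk samples fewer cells of a type and less RNA per cell cannot be told apart.

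Over the 8 libraries of Pax5-/- cells, the genes most like the called members by Pearson's r of log2 values were Tspyl2 and Jchain for Dusp4 (0.988 each), Vat1 (0.991) and Sik1 (0.976) for Dusp5, Ppfia4 (0.997) and Klhl25 (0.995) for Spry1, and S1pr4 and Tiam1 for Jun (0.99 each). These are the highest of many correlations over 4 groups of 2 and describe these libraries only.

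In cultured Sirt7-/- cells the same vectors were read in cells that already expressed Pax5, at 25995 and 37114 with EV, 43024 and 43260 with Pax5 WT and 38690 and 45426 with K198R. Here Dusp4 lay above EV with either form, where in Pax5-/- cells it lay below, but in Sirt7-/- cells neither difference from EV was called without the block. None of the 9 genes was called for either form without the block (limma, 0.0366% of all genes with Pax5 WT and 4.83% with K198R). At an unadjusted p under 0.05 there were 2 and 3 members, against 9.91% and 18.4% of all genes. With the replicate as a block, Egr1 was called with Pax5 WT (1.96% of all genes), and Dusp4, Egr1, Fos and Spry1 with K198R (11.6%). The median log2 fold change of the 9 was 0.26 with Pax5 WT and 0.19 with K198R, beside -0.01 and 0.01 over all genes.

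Dusp4 stood at 44.6 and 29.6 with EV, 72.7 and 111 with Pax5 WT and 114 and 97.1 with K198R, and neither form overlapped EV. In these cells 38.7% of all genes did not overlap EV with Pax5 WT and 49.6% did not with K198R. The log2 fold change was 1.29 with Pax5 WT (SE 0.349, adjusted p = 0.273; 0.106 with the block) and 1.51 with K198R (SE 0.349, adjusted p = 0.053; 0.0286 with the block; 0.0495 with a pseudocount of 5). Dusp5 stood at 2081 and 2525 with EV, 1670 and 2087 with Pax5 WT and 1555 and 2151 with K198R, lower within each replicate as in Pax5-/- cells, but the groups overlapped and neither change was called (-0.30 and -0.33, adjusted p = 0.687 and 0.415). Dusp6 stood at 616 and 374 with EV, 537 and 479 with Pax5 WT and 912 and 561 with K198R, and was not called.

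Spry1 was higher in replicate 1 than in replicate 2 with every vector, at 296 and 131 with EV, 236 and 147 with Pax5 WT and 145 and 71.7 with K198R. Within replicates it was lower with K198R than with EV (log2 differences of -1.02 and -0.86), and only the blocked fit called it (-0.95, adjusted p = 0.413; 0.0228 with the block). Spry2 ran from 248 to 324 and Spred1 from 3909 to 4550 in the 6 Sirt7-/- libraries, with changes of at most 0.26 in size and no call. Spred1 was the second most abundant member per kb after Dusp5, at 623 against 931 with EV.

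Egr1 rose from 587 and 633 with EV to 980 and 1019 with Pax5 WT and 876 and 892 with K198R in the blocked fit (0.71 and 0.54, adjusted p = 0.0474 and 0.0377 with the replicate block; 0.171 and 0.0792 without it). No EV value overlapped those with a form of Pax5. Fos stood at 128 and 266 with EV, 247 and 796 with Pax5 WT and 367 and 700 with K198R. Its change with K198R was called by the blocked fit alone (1.45, SE 0.587, adjusted p = 0.234; 0.0125 with the block). Genes listed as OP9 markers summed to 7274 and 11443 with EV, 11435 and 29073 with Pax5 WT and 8920 and 21935 with K198R, mostly Fn1. Fn1 also led this list in the sorted pro-B libraries (364 to 1060), so the sum is not specific to OP9 cells. Fos and this sum were both highest in the replicate 2 libraries with a form of Pax5. In replicate 1, Fos was higher and the sum lower with K198R than with Pax5 WT. The part of feeder cells in the result was not tested. Jun stood at 565 and 1082 with EV, 687 and 1533 with Pax5 WT and 522 and 1523 with K198R, so it followed the replicate.

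**Figure D3:**
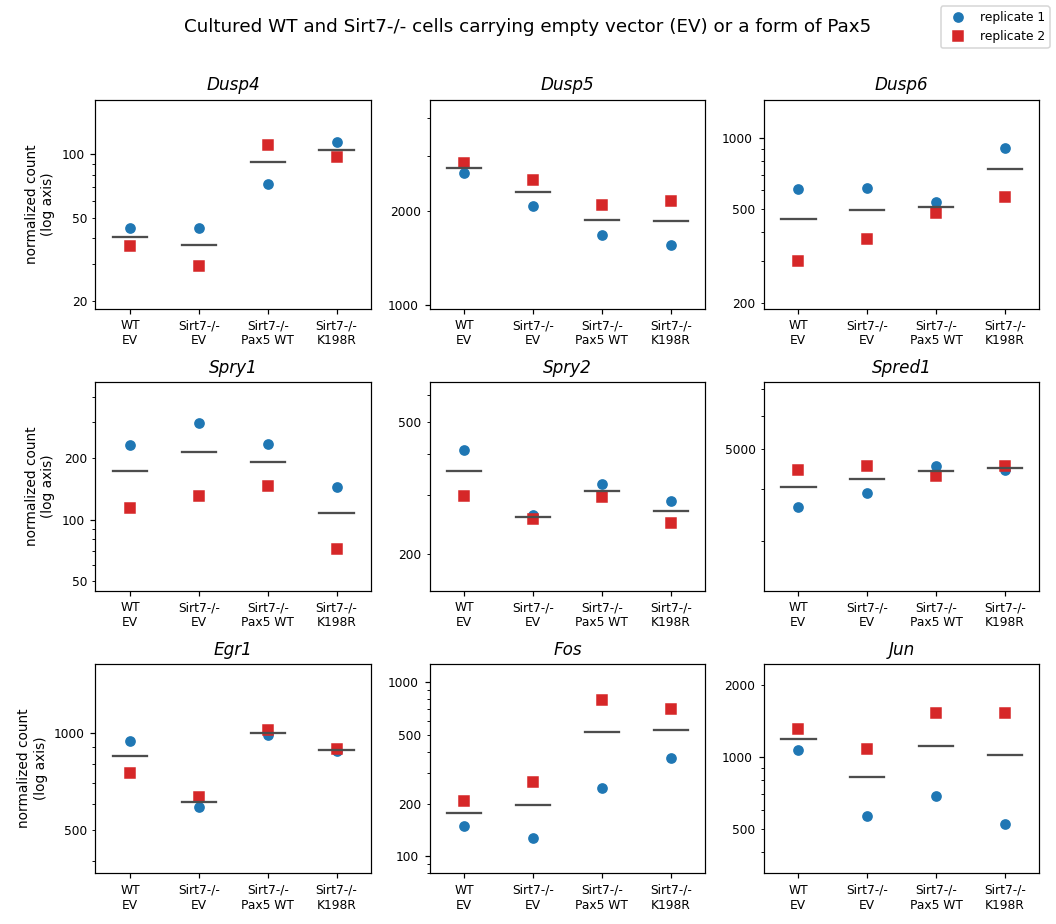
Normalized counts of each gene (log axis) in the 8 libraries of cultured WT and Sirt7-/- cells, by genotype and vector; points are replicates 1 (circle) and 2 (square) and bars are group means. Dusp4 and Egr1 are above the Sirt7-/- EV values with both forms of Pax5, while Spry1, Fos and Jun separate by replicate in most groups.

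The wider lists were read with K198R in Sirt7-/- cells, where 4.83% of all genes were called. Of 12 other feedback inhibitors 2 rose, Dok2 (1390 against 657, log2 fold change 1.10, adjusted p = 0.022) and Spred2 (1990 against 1090, 0.85, adjusted p = 0.0424). Spred2 was thus called as higher with K198R in both kinds of cell. Of 22 other immediate early genes 1 rose, Nr4a3 (274 against 38.5; 2.77, adjusted p = 0.022), a gene that fell with K198R in Pax5-/- cells. No cascade gene of 18 and no heat shock gene of 6 was called. Of 13 receptor and adaptor genes 1 fell, Il7r, the receptor for a cytokine in the medium (2630 against 5760; -1.13, adjusted p = 0.00456), and 1 rose, Cd79a (41300 against 27800; 0.57, adjusted p = 0.022). Mature B cell genes summed to 4084 and 6925 with EV, 9037 and 19243 with Pax5 WT and 17037 and 37202 with K198R, with Ighd most abundant in the latter groups; 1 rose and 1 fell with K198R of 4 tested. T cell genes summed to 2808 and 1616 with EV, 1038 and 383 with Pax5 WT and 787 and 381 with K198R, mostly Thy1, and 1 of 2 tested fell with K198R. With K198R 1 of 2 myeloid genes (sum 714 and 923 against 847 and 934, mostly Itgam) and 2 of 4 plasma cell genes (5100 and 3991 against 4892 and 3843, mostly Xbp1) fell as well. The part of these lists was not tested. K198R against Pax5 WT gave no call among the 9 (0.425% of all genes), and none at an unadjusted p under 0.05, against 8.78% of all genes.

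Sirt7-/- against WT cells with EV gave no call among the 9 genes (limma, 0.557% of all genes called). At an unadjusted p under 0.05 there was 1 member, Egr1, against 9.68% of all genes. Egr1 stood at 941 and 750 in WT and 587 and 633 in Sirt7-/- cells, without overlap (-0.46, SE 0.140, adjusted p = 0.269). Spry2 stood at 412 and 298 against 262 and 255 (-0.44, SE 0.204, adjusted p = 0.57). Dusp4, at 44.8 and 36.5 in WT, overlapped the Sirt7-/- values, as did Dusp6, Spry1, Spred1, Fos and Jun, the last at 1069 and 1312 in WT (-0.60, SE 0.556, adjusted p = 0.931). Dusp5 did not overlap, at 2659 and 2857 in WT against 2081 and 2525 (-0.27, adjusted p = 0.831). In this comparison 34.6% of all genes did not overlap, so the lack of overlap of Egr1, Spry2 and Dusp5 is no result about these genes. Mature B cell genes summed to 1211 and 1702 in WT against 4084 and 6925, with 1 of 4 called higher, and their part was not tested.

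**Figure D4:**
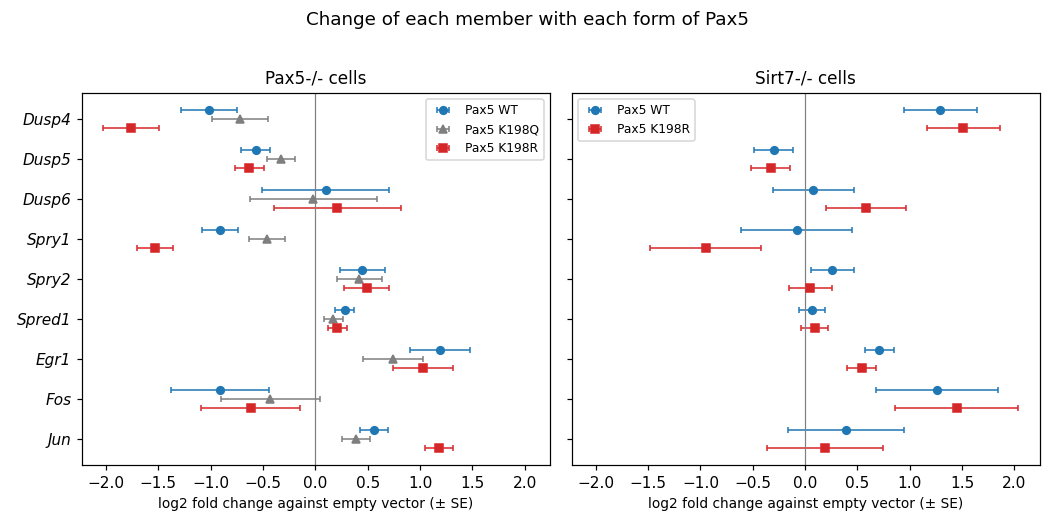
Log2 fold change of each gene against EV (horizontal axis; points are limma estimates and bars ± 1 SE) for each form of Pax5, in Pax5-/- cells (left) and Sirt7-/- cells (right). Dusp4 lies below 0 on the left (to -1.76) and above 0 on the right (to 1.51), Dusp5 lies below 0 and Egr1 above 0 on both sides, and the bars of Dusp6, Spry1, Fos and Jun are wide on the right.

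The sorted cells let the same genes be followed from the pro-B to the pre-B stage, within each mouse. Tests without the block treat the stages of a mouse as separate samples. In WT mice, Dusp5, Dusp6 and Spry2 rose and Spred1 fell, 4 of the 9 genes, where 40.2% of all genes were called, so the count is no result about these genes as a set. With the mouse as a block, Fos and Jun were called higher as well, 6 of 9 against 43.1%. In Sirt7-/- mice Dusp5 rose and Spred1 fell, 2 of 9 against 35.7% of all genes, and Dusp6 joined them with the mouse as a block, 3 of 9 against 38.5%. The median log2 fold change of the 9 was 1.0 in WT and 0.46 in Sirt7-/- mice, beside -0.04 over all genes in both. Scaling each library to its total moved all genes by -0.09 in WT and -0.10 in Sirt7-/- and changed no call in WT.

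Dusp5 made the largest called change. It stood at 1100 and 952 in WT pro-B cells and 5834 and 4556 in WT pre-B cells, 5.3-fold and 4.79-fold higher within the mice, and at 713 and 685 against 3098 and 2655 in Sirt7-/- mice, 4.35-fold and 3.88-fold higher. The log2 fold changes were 2.33 (SE 0.156, adjusted p = 0.000166) and 2.04 (adjusted p = 0.000339). Dusp6 stood at 2430 and 2508 in WT pro-B and 6592 and 5624 in WT pre-B cells (1.30, SE 0.401, adjusted p = 0.0387; 0.00169 with the block). Without the block this call was lost when any of the 4 libraries was left out, with adjusted p of 0.145 without pre-B replicate 1, 0.0968 without pre-B replicate 2, 0.13 without pro-B replicate 1 and 0.124 without pro-B replicate 2, and with no filter on low values (0.0795). In Sirt7-/- mice it stood at 2670 and 5885 in pro-B and 5434 and 10047 in pre-B cells, higher in the pre-B cells of each mouse by 2.04-fold and 1.71-fold (0.90, adjusted p = 0.126; 0.00519 with the block). Dusp4 was the least abundant member, at 43.9 to 96 in all 8 libraries, and was not called at either genotype.

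Spry2 rose in WT mice from 1061 and 1111 to 2002 and 1925 (0.85, SE 0.112, adjusted p = 0.00137), whereas in Sirt7-/- mice it stood at 919 and 1020 in pro-B and 1040 and 1108 in pre-B cells (0.15, adjusted p = 0.343). The difference between these changes was -0.71 (SE 0.159, adjusted p = 0.65) and was not called by limma, in which no member and 0.00567% of all genes passed. At an unadjusted p under 0.05, 1 member, Spry2, passed, against 5.43% of all genes. edgeR called no member for this difference (0.00567% of all genes) and DESeq2 called Spry2 (adjusted p = 0.0352; 0.634% of genes with an adjusted p). Spred1 fell from 1218 and 1470 to 581 and 724 in WT (-1.04, SE 0.172, adjusted p = 0.00341) and from 1480 and 1261 to 529 and 587 in Sirt7-/- mice (-1.29, adjusted p = 0.0021), without overlap of the stages. The stages did not overlap for 72.6% of all genes in WT and 69.8% in Sirt7-/- mice. Spry1 was lower in pre-B cells in all 4 mice, at 280 and 145 against 300 and 330 in WT and 202 ± 5.44 (SD, n = 2) against 329 and 446 in Sirt7-/- mice, and was not called (-0.64 and -0.92, adjusted p = 0.161 and 0.0648), though it was in Sirt7-/- mice with scaling to the total (0.0472) or DESeq2 (0.0334).

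Fos rose within each WT mouse from very different levels, from 820 to 1639 and from 136 to 273, a log2 difference of 1.0 in both, and Jun rose from 5688 to 11749 and from 2146 to 5176. Only the fit with the mouse as a block called them (1.0, adjusted p = 0.651 without and 0.0345 with the block for Fos; 1.16, 0.442 and 0.0117 for Jun). Egr1 stood at 1435 and 1747 in WT pro-B and 4559 and 3399 in WT pre-B cells, without overlap and not called (1.31, SE 0.667, adjusted p = 0.162; 0.145 with the block). In Sirt7-/- mice none of these 3 genes was called, and the mice differed: replicate 1 resembled WT, with Egr1 at 1312 and 4823, Fos at 1172 and 2568 and Jun at 5331 and 9948 in pro-B and pre-B cells, whereas in replicate 2 Fos (15802 and 16061) and Jun (41955 and 42765) were high at both stages and Egr1 in pro-B cells only (6927, against 4169 in pre-B cells).

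**Figure D5:**
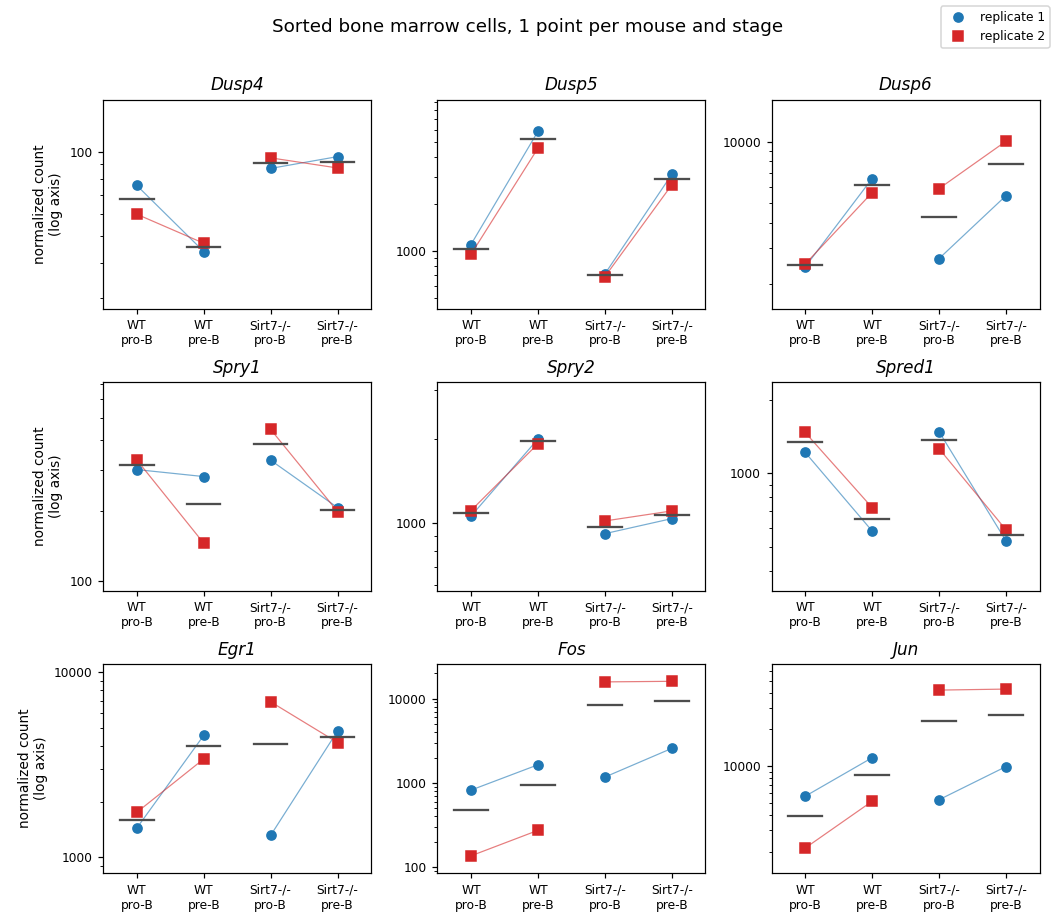
Normalized counts of each gene (log axis) in sorted pro-B and pre-B cells; lines join the stages of a mouse, symbols mark replicates 1 (circle) and 2 (square) and bars are group means. Dusp5 rises and Spred1 falls in all 4 mice, Spry2 rises in the WT mice, and Fos and Jun of the Sirt7-/- replicate 2 mouse (up to 16061 and 42765) lie far above the other mice.

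That mouse stood apart in more than the 9 genes. The single genes given next were chosen after their values were seen. Its pro-B and pre-B libraries held 20660 and 7347 counts of Fosb, against at most 146 in any other sorted library, though other immediate early genes did not all follow. Of 23, 16 were highest in this mouse among the pro-B and 13 among the pre-B libraries, 11 at both stages, and Egr2, Egr3, Fosl1, Mcl1 and Maff at neither. Its libraries held 8631 and 4591 counts of the ERK and stress phosphatase Dusp1, against at most 1231. Hspa1a, the inducible heat shock protein 70, stood at 6716 and 1721 against at most 174, and the 6 heat shock genes together at 195679 and 104731, against 88764 to 110212 in the other pro-B and 40136 to 56623 in the other pre-B libraries. Globin and other erythroid genes summed to 42198 and 65573 against 5125 to 14740 in the other libraries, with Hba-a1 most abundant, and NK cell genes to 978 and 578 against 90.6 to 532. Myeloid genes were at 9531 and 10674 against 11498 to 33542. The part of these in the results was not tested. Without both of its libraries, an alternative added after the values were seen, 4 members were called between stages in Sirt7-/- mice, where 21.5% of all genes were called and 1 mouse remained, Dusp6 (1.03, adjusted p = 0.0195) and Egr1 (1.88, adjusted p = 0.0161) in addition.

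By limma, comparison of Sirt7-/- with WT mice gave no call among the 9 genes in pro-B cells (0.0623% of all genes called) or in pre-B cells (0.085%). At an unadjusted p under 0.05 there were 1 member in pro-B cells, Dusp5, and 3 in pre-B cells, against 5.94% and 13.6% of all genes. edgeR called none in pro-B (0.0567% of all genes) or pre-B cells (0.0283%), and DESeq2 called none in pro-B cells (0.758%). DESeq2 called 2 in pre-B cells, where it called 4.62% of genes with an adjusted p, Spry2 (-0.87, adjusted p = 5.84e-08) and Dusp5 (-0.86, adjusted p = 0.000275). In limma these stood at -0.87 (SE 0.112, adjusted p = 0.0715) and -0.85 (SE 0.156, adjusted p = 0.122), and Dusp4 at 1.0 (SE 0.273, adjusted p = 0.207). The values of these 3 and of Fos did not overlap between genotypes in pre-B cells, 4 of 9 against 41.4% of all genes, so the count is near the background. They were 1040 and 1108 against 2002 and 1925 for Spry2, 3098 and 2655 against 5834 and 4556 for Dusp5, and 96 and 87.4 against 43.9 and 47 for Dusp4. Fos was 17.8-fold higher in Sirt7-/- than WT pro-B cells by its means and Jun 6.04-fold, but the log2 fold changes were 3.68 and 2.10 with SE of 1.58 and 1.10 and adjusted p of 0.841 and 0.907. Without the replicate 2 mouse they became 1.81 and 0.61. The pre-B changes of 3.26 and 1.40 became 1.94 and 0.35. In the same pre-B libraries mature B cell genes summed to 207914 and 143584 in Sirt7-/- against 119145 and 91281 in WT mice (median log2 fold change 0.69, all 5 positive), and myeloid genes to 11498 and 10674 against 15197 and 14871, mostly Itgam (median -1.43, none of 7 positive). No gene of either list was called, and their part in the results was not tested.

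The wider pathway was read in the same way between stages, where 40.2% of all genes were called in WT and 35.7% in Sirt7-/- mice, so counts near these shares are no result about a list. In WT mice 4 of 18 cascade genes rose and 5 fell, with the adaptor gene Gab2 lower in pre-B cells (-1.32, adjusted p = 0.000227) and Araf higher (0.54, adjusted p = 0.00573). Of 11 other feedback inhibitors none was called higher and 4 fell, Spred2 (-2.02, adjusted p = 0.000294), Dusp7 (-2.34, adjusted p = 0.00152), Spry4 (-3.46, adjusted p = 0.036) and Dok2 (-0.66, adjusted p = 0.0477). Neither family moved as one. Dusp7 fell while Dusp5 and Dusp6 rose. Spred1 and Spred2 fell, whereas Spred3 stood at 93.5 and 75.5 in WT pro-B and 129 and 132 in WT pre-B cells. Of 22 other immediate early genes 8 rose and 3 fell, with Egr3, an Egr1 relative, higher (1340 against 113; 3.53, adjusted p = 0.000294) and Myc lower (501 against 6400; -3.65, adjusted p = 0.000441). Syk (1.55, adjusted p = 9.41e-05) and Cd79b (1.74, adjusted p = 0.000126), of the pre-B cell receptor, were among 8 of 13 upstream genes that rose, and 3 fell. In Sirt7-/- mice the counts were 4 and 4 of 18, 0 and 3 of 11, 8 and 2 of 22, and 7 and 3 of 13. Mature B cell genes, led by Ighd, summed to 21734 to 27572 in the pro-B and 91281 to 207914 in the pre-B libraries, and all 5 rose in WT mice. Plasma cell genes summed to 25900 to 65235 in the pro-B libraries, mostly Jchain, and 8610 to 9794 in the pre-B libraries, and in WT mice 1 of 5 rose and 2 fell. T cell genes summed to 5510 to 6084 in pro-B and 3025 to 3573 in pre-B libraries, mostly Lck, and 6 of 8 fell in WT mice. Myeloid genes summed to 33542 and 24478 in WT pro-B and 15197 and 14871 in WT pre-B cells, where 1 of 7 rose and 2 fell. Heat shock genes summed to 88764 and 110212 in WT pro-B and 40136 and 56623 in WT pre-B cells (median log2 fold change -0.99), and 1 of 6 fell. Of the NK cell, erythroid and stromal lists (medians -2.77, -1.16 and -0.75), none of 5, none of 5 and 1 of 7 fell. The part of these lists in the differences between stages was not tested.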

How the data were processed

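RNA was sequenced as stranded polyA libraries from 24 samples and Pax5 ChIP with inputs from 12, all mouse. The authors quantified RNA with Salmon against mm10 and imported it with Tximeta, and the deposited signal values are DESeq2 normalized counts, made separately for 3 tables of 8 libraries. Of the values for sorted cells, 100% gave whole reads (tolerance 0.1 read) once divided by a library's step, and the other tables showed no such step. The authors aligned ChIP reads with Bowtie2 and called peaks with MACS2 per replicate over its input, and the deposited lists give fold over input and −log10 q per peak. Peaks in the list deposited for K198R replicate 2 carry another replicate number inside the file.

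Genes with at least 10 normalized counts in 2 libraries were tested on log2(value + 1) with limma 3.58.1 (trend, R 4.3.3) within each table, all 4 groups in 1 fit, with Benjamini-Hochberg adjusted p under 0.05 as the call. edgeR 4.0.16 and DESeq2 1.42.0 were run on the whole reads of the sorted table as alternatives. On simulated counts for the sorted genotype comparison (17649 genes), 75 of 100 genes changed 2-fold and 100 of 100 changed 4-fold were recovered, with 7 false calls. Each simulated gene had the same noise, the median over genes. The figures therefore do not describe genes with a wider spread between mice, such as Fos and Jun. With 2 replicates a group, the smallest p of an exact permutation test is 0.333, so tests rest on spread shared across genes. In the main fit, p-values measure the spread between libraries of a group, and the stages of a mouse count as separate samples. With the block, they measure the spread left once the mouse or replicate number is taken out. In tests, stages of the sorted cells were paired by mouse, from the sample descriptions, only in the fit with the block. Per the study's methods, RNA replicates were made on different days. In the cultured tables same-numbered libraries deviated together (r of 0.26 to 0.38 in Pax5-/- and 0.16 to 0.43 in the other table), so the replicate was used as a block in an alternative fit.

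Members and gene lists were chosen with earlier results of these data known. Genes named beyond the 9 were the up to 4 called members of each list with the smallest p per comparison, and the genes most correlated with each member. Fosb, Dusp1, Hspa1a, Egr2, Fosl1, Mcl1 and Maff were named after their values were seen. A pro-B marker gene is not reported here. Alternatives were another pseudocount (5), no filter, scaling to equal totals, an added log2 fold change minimum of 1.5, the block, other tools and leaving out each replicate; for peaks, q under 1e-05, 50 kb on either side and a larger overlap.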

Additional observations from a re-analysis of the deposited data

Results flagged for a closer look

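Dusp4 with a form of Pax5 lay below EV in Pax5-/- cells and above it in Sirt7-/- cells, with both replicates of each comparison on the same side. In Pax5-/- cells its log2 fold change was -1.02 with Pax5 WT (limma, adjusted p = 0.0991; 0.0124 with the replicate block) and -1.76 with K198R (0.00647; 0.000533). In Sirt7-/- cells it was 1.29 with Pax5 WT (0.273; 0.106), not called by either fit, and 1.51 with K198R (0.053; 0.0286). Lack of overlap with EV held for 42.6% of all genes with Pax5 WT and 46.8% with K198R in Pax5-/- cells. In Sirt7-/- cells it held for 38.7% and 49.6%. How many genes lay on opposite sides of EV in the 2 kinds of cell was not counted. The difference between the cells was not tested. The cells differ in Sirt7 genotype, in strain background, in source (fetal liver by the study's methods against bone marrow) and in their Pax5 level.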

How the results depend on the processing

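Across alternatives, 131 of 153 counts of called members stayed within 1.5 times the reported count, 422 of 486 single values kept direction and side of the threshold, and 15 of 15 counts of members with peaks stayed within 1.5 times. Of these, K198Q went from 6 to 5 with q under 1e-05, as Dusp6 was lost, and with peaks of a single replicate counted Pax5 WT gave 7 to 8, K198Q 6 to 7 and K198R 8 with either. With an added log2 fold change minimum of 1.5, called members became 1 between stages in WT and 1 in Sirt7-/- mice, 0 for Pax5 WT and 2 for K198R against EV in Pax5-/- cells, and 0 for K198R against K198Q. With no filter, Pax5 WT against EV in Pax5-/- cells gave 0, and with a pseudocount of 5 K198R against EV in Sirt7-/- cells gave 1. DESeq2 gave 2 for genotype in pre-B cells and 1 for the stage by genotype difference. With the replicate as a block, counts became 6 for Pax5 WT against EV and 2 for K198R against Pax5 WT in Pax5-/- cells, and 1 for Pax5 WT and 4 for K198R against EV in Sirt7-/- cells. The block changed no other count of members by over 1.5 times. Whether sorted WT and Sirt7-/- mice of the same number shared a day is not stated and their libraries did not deviate together (r of 0.01 to 0.06), and there the block moved all-gene calls from 11 to 15 in pro-B and from 15 to 7 in pre-B cells and left 0 members called. Without both libraries of the Sirt7-/- replicate 2 mouse, chosen after seeing the data, 4 were called between stages in Sirt7-/- mice.

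Leaving out each library in turn gave 3 to 4 calls between stages in WT and 2 to 4 in Sirt7-/- mice, 0 to 0 for Pax5 WT and 3 to 5 for K198R against EV in Pax5-/- cells, and 0 to 2 for K198R against K198Q. Where this left 1 sample in a group, it was assumed to vary like the other groups. Values that changed sign were not called without the block (Fos between stages in WT was called with it), and over the libraries left out they ranged from -0.63 to 1.77 for Egr1 between stages in Sirt7-/- mice, from -0.29 to 2.29 for Fos between stages in WT, from -0.02 to 0.4 for Egr1 and -0.16 to 0.72 for Dusp6 by genotype in pre-B cells, and from -0.27 to 2.13 for Egr1 by genotype in pro-B cells. Without the Sirt7-/- replicate 2 mouse, Egr1 in pro-B and Dusp6 in pre-B cells stood at -0.27 and -0.16. The causes were not tested. The depth of the cultured libraries is unknown, so counting error there could not be separated from the spread between replicates.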

Other observations

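ETS and SRF factors, which bind the regulatory regions of many immediate early genes, were read as a list of 7. Between stages in WT mice Srf (0.38, adjusted p = 0.00552 in limma), Elk3 (0.63, adjusted p = 0.00605) and Elk4 (0.32, adjusted p = 0.0394) were higher in pre-B cells, and Etv4, itself a target of ERK, was lower (2.09 against 44.3 normalized counts; -4.30, adjusted p = 0.0069). In Sirt7-/- mice Srf rose (0.39, adjusted p = 0.00599) and Etv4 fell (-2.95, adjusted p = 0.0329). Of the 7, 3 rose and 1 fell in WT mice, where 40.2% of all genes were called. In Sirt7-/- mice 1 rose and 1 fell, where 35.7% were called, so the counts are no result about the list. None of the 6 tested in Pax5-/- cells (0.922% to 9.92% of all genes called), or of the 7 in Sirt7-/- cultures (0.0366% and 4.83%), was called with any form of Pax5 against EV. With Pax5 WT, 2 of the 7 had a Pax5 peak in both replicates, with K198Q 1 and with K198R 2. The shares over 21911 protein-coding genes were 26.5%, 9.79% and 30.3% in that order, so these counts are no result about the list.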
